A study of Drosophila melanogaster with 11 samples.

Results

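Of the 16503 genes listed in the matrices, 5 were followed: the Hox genes Antennapedia (Antp), Ultrabithorax (Ubx) and Sex combs reduced (Scr), and the genes of the Hox cofactors Homothorax (hth) and Extradenticle (exd). They were chosen by name, with earlier results of these data known. The source was Drop-seq of wing imaginal discs of larvae of Drosophila melanogaster grown at 25 °C and taken in the wandering stage, the third instar, with the pouch cut away by hand, so that the notum, the hinge and the adult muscle precursors (myoblasts) attached to them were left. Drop-seq counts unique molecular identifiers (UMIs) of the 3′ ends of polyadenylated RNA in single cells caught in droplets. The 3 libraries labelled 1151>Ama-RNAi (replicates 1, 4 and 5) carried a hairpin construct against Amalgam (TRiP.Ama_HMS00297 in attP2), and the 8 libraries titled wild type came from larvae with a hairpin against mCherry (VALIUM20-mCherry in attP2, 1151>mCherry-RNAi, replicates 5 to 8) or with the driver alone (1151-GAL4, replicates 1 to 4). All 11 libraries carried the 1151-GAL4 driver, which acts in the myoblasts, and no library was free of the driver.

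Hox proteins are homeodomain transcription factors that give each segment of the body its identity. Scr acts in the first thoracic segment, Antp in the second, to which the wing disc belongs, and Ubx in the third, where it turns the dorsal disc into a haltere. Exd, a protein of the Pbx family, and Hth, of the Meis family, bind DNA together with Hox proteins, and Exd enters the nucleus only where Hth is made. In the wing disc hth is known for its expression in the notum, the hinge and the peripodial epithelium, the thin layer that covers the disc, while the distal pouch represses it. Antp, Scr and hth are large genes on chromosome arm 3R, and Ubx lies on the same arm. In the Ensembl annotation of build BDGP6.54, Antp (FBgn0260642) spans chr3R:6896253-6999228 on the minus strand with 12 transcripts, hth (FBgn0001235) chr3R:10507561-10639568 on the minus strand, Ubx (FBgn0003944) chr3R:16656623-16734426 on the minus strand, Scr (FBgn0003339) chr3R:6823120-6849981 on the minus strand and exd (FBgn0000611) chrX:15992468-15996509 on the plus strand. Antp overlaps 2 annotated genes on its own strand, hth 3 on its strand and 1 on the other, Ubx 1 on the other strand, Scr 2 on its strand and 3 on the other, and exd none. The sources do not say whether strand was used in the counting, so UMIs of the overlapping genes may be mixed for the first 4.

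Cells were barcodes with 200 to 2500 detected genes, which left 22041 wild-type cells and 4044 cells of the libraries labelled 1151>Ama-RNAi. Between 1335977 and 10548893 UMIs were counted per library, and the median cell held 503 to 825 UMIs. In all, 19 barcodes occurred in more than 1 library. Cells were put in classes by the UMIs of a few marker genes: 5211 wild-type myoblasts (Him, zfh1, twi and CG9650, at least 2 UMIs), 9715 epithelial cells (Fas3, grh, ImpE1 and ImpE2, at least 2), 417 knrl/drm/Mp cells (at least 2), 91 tracheal cells (trh and Cht5, at least 2) and 57 peripodial cells (Idgf4 and Obp56a, at least 3). Cells that met more than 1 of the myoblast, peripodial, knrl/drm/Mp and tracheal rules were left out as cells of several classes. So were cells that met both the myoblast and the epithelium rule. Cells that met the epithelium rule and the peripodial, knrl/drm/Mp or tracheal rule were kept in the latter class. The epithelium holds the cells that met its rule and no other. Markers that the rules did not use were in place for myoblasts and peripodial cells: Mef2, BM-40-SPARC, htl, trol and Ef1alpha100E summed to 2247 to 3335 CPM (UMIs of a gene per 1000000 UMIs of the class and library) in wild-type myoblasts and to 151 to 261 CPM in the epithelium, and Ance, CG4382 and CG13117, markers of the peripodial layer, reached 2466 and 2523 CPM in peripodial cells against 190 to 395 CPM in the epithelium. The knrl/drm/Mp cells had 652 to 1836 CPM of these same peripodial markers. The check markers of tracheal cells, serp, Mmp1, btl and Gasp, did not set that class apart from peripodial cells. They averaged 268, 332, 26.1 and 27.2 CPM in tracheal cells and 609, 432, 22.1 and 368 CPM in peripodial cells (wild type, 2 libraries each). In tracheal cells the epithelium rule markers Fas3, grh, ImpE1 and ImpE2 averaged 841, 471, 397 and 1300 CPM (wild type, 2 libraries). The tracheal class therefore goes by its rule alone, and its name was not shown to hold. Ama was no lower in the myoblasts of the libraries labelled 1151>Ama-RNAi (208 and 366 CPM in the libraries with at least 10 such cells) than in the wild type (35.1 to 230 CPM, log2 difference 0.39, adjusted p = 0.83, edgeR), so the transcript gave no check of the label, and these libraries are named by it. The paper reports otherwise, that Ama was among the markers lost in the myoblasts of this knockdown, which it defined by clustering. The reason for this difference was not tested. Myoblasts made up 0.39% to 2.14% of the cells in the libraries labelled 1151>Ama-RNAi, 56 in all, against 11.98% to 28.3% in the wild type, without overlap. The 2 libraries with at least 10 myoblasts had 733 and 1249 CPM of the myoblast check markers, below the wild-type range.

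UMIs were summed per class and library, compared between classes within libraries with edgeR's quasi-likelihood test, and p-values were adjusted over all genes tested (Benjamini-Hochberg, threshold 0.05). Each SE of a log2 difference was derived from the test statistic of the fitted model. The SE and the p-value do not directly measure the spread of that difference between libraries. Droplets also catch free RNA. Barcodes with fewer than 200 genes, 38676 in the wild type, are therefore given as the level of a library's RNA outside intact cells, although some of them may be poor cells.

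Antp was the member that set 1 class apart, the knrl/drm/Mp cells. The paper gives drm and Antp as markers of a peripodial cluster in these data, and knrl for an epithelial cluster placed in the posterior hinge. The class rule thus mixes markers of different clusters, and the link of Antp to drm was reported before this test. In knrl/drm/Mp cells, named after the nuclear receptor gene knirps-like, the zinc finger gene drumstick and the collagen gene Multiplexin, Antp was measured at 1151, 336, 515 and 570 CPM in 1151-GAL4 replicates 1 to 4 and at 590, 893 and 797 CPM in 1151>mCherry-RNAi replicates 6 to 8. The epithelium of the same libraries had 153, 206, 131 and 136 CPM and 179, 244 and 212 CPM. All 7 values of the knrl/drm/Mp cells lay above all 7 of the epithelium, and above the barcodes under 200 genes of their own library by 1.94 to 5.67 times. The means were 693 ± 272 CPM against 180 ± 42.6 CPM (SD, n = 7 libraries each), a log2 difference of 1.90 ± 0.09 (SE, adjusted p = 6.3e-90, edgeR). Within libraries the ratio of the 2 classes ran from 1.63 to 7.51, a spread that the SE and p do not directly measure. Of the 4 members tested, Antp rose and hth fell in this comparison, in which 4.2% of all 5454 genes passed. In the libraries labelled 1151>Ama-RNAi, which the test did not use, Antp was at 747, 224 and 452 CPM in knrl/drm/Mp cells of replicates 1, 4 and 5 and at 210, 152 and 196 CPM in their epithelium, higher in 3 of 3. Against the barcodes under 200 genes of their own library these levels were 0.67 to 2.55 times as high, with replicate 4 (10 Antp UMIs) below them. The difference between the classes was not shown to depend on the label (log2 change of the difference -0.58 ± 0.21, adjusted p = 0.96) or on the wild-type line (-0.26 ± 0.19, adjusted p = 0.99).

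**Figure D1:**
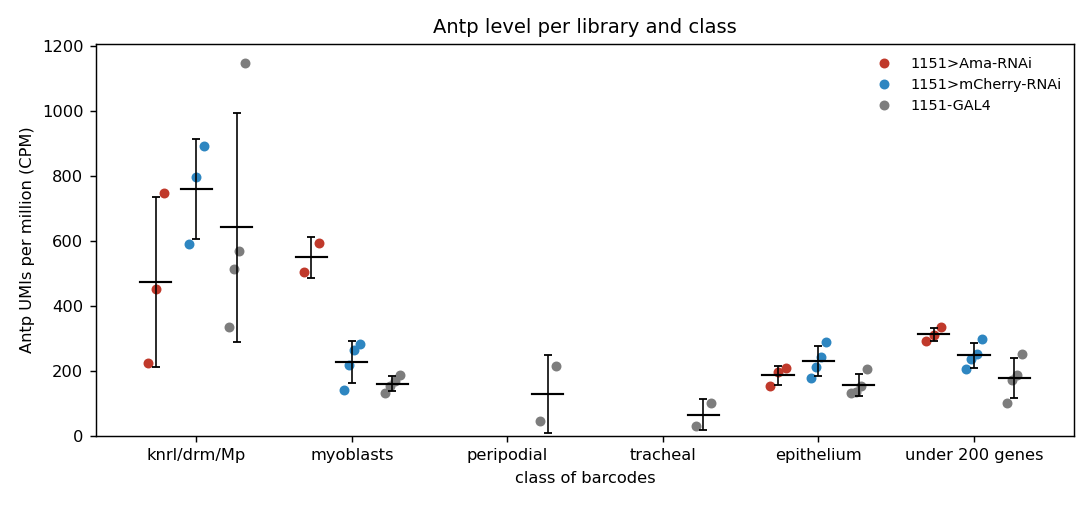
Antp in CPM (vertical axis) by class, with a point for each library with at least 10 cells of the class, coloured by line, and bars at the mean and SD of each line. The knrl/drm/Mp cells of the wild type sit between 336 and 1151 CPM, above the epithelium, and the myoblasts of the libraries labelled 1151>Ama-RNAi at 595 and 505 CPM lie above those of the wild type.

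Within the knrl/drm/Mp cells, Antp was not even. In the 278 wild-type cells with a drm UMI, 606 Antp UMIs gave 732 CPM (95% exact Poisson interval 675 to 793, counting error only), and in the 139 cells that qualified through knrl and Mp without drm, 129 UMIs gave 314 CPM (262 to 373). The cells with drm were higher in all 7 libraries with at least 10 knrl/drm/Mp cells, from 342 against 318 CPM in 1151-GAL4 replicate 2 to 2311 against 279 CPM in 1151-GAL4 replicate 1, and in all 3 libraries labelled 1151>Ama-RNAi (1172 against 169, 256 against 207 and 783 against 131 CPM). This split was made after the values had been seen and has no test. It did not hold for each marker combination. Among cells without drm, 47 with Mp alone had 229 CPM from 25 UMIs and 78 with knrl alone 266 CPM from 67 UMIs, but 14 with both knrl and Mp had 747 CPM from 37 UMIs, above the 475 CPM of 47 cells with drm and Mp and the 550 CPM of 21 cells with knrl and drm.

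Cells with several Antp UMIs made up a larger share of the knrl/drm/Mp class than of the others, although many were epithelial. Of the 827 wild-type cells with at least 2 Antp UMIs, 131 were knrl/drm/Mp cells (31.4% of that class), 430 were epithelial (4.43%) and 100 were myoblasts (1.92%). At least 5 were counted in 120 cells, of which 54 were knrl/drm/Mp cells (12.9% of the class), 47 epithelial (0.48%), 2 myoblasts and 15 of several classes. At least 10 Antp UMIs were counted in 21 cells, 13 of them knrl/drm/Mp cells, 5 epithelial and 3 of several classes, and the highest count in a cell was 37. The knrl/drm/Mp cells were also deeper, with a library median of 2075 UMIs per cell against 886.5 in the epithelium, beside which these counts stand. With each cell thinned to 400 UMIs, 17.7% of 407 knrl/drm/Mp cells kept an Antp UMI, 6.53% of 4652 myoblasts and 5.98% of 8505 epithelial cells. Without thinning the shares were 48.7%, 14.7% and 13.6%, and 1.96% in barcodes under 200 genes, where the library medians were 37 to 309 UMIs. Thinning left out 10, 559 and 1210 shallower cells of the 3 classes.

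In myoblasts Antp was at 132, 168, 186 and 154 CPM in 1151-GAL4 replicates 1 to 4 and at 140, 219, 284 and 264 CPM in 1151>mCherry-RNAi replicates 5 to 8, against 153, 206, 131 and 136 CPM and 288, 179, 244 and 212 CPM in the epithelium. The groups overlapped throughout. The means were 194 ± 57.0 and 194 ± 54.8 CPM (SD, n = 8), with a log2 difference of 0.16 ± 0.11 (adjusted p = 0.245), and neither class stood above the barcodes under 200 genes (213 ± 60.7 CPM), so that Antp RNA made by these cells cannot be told apart from free RNA by its level. Of the 4 members tested, Ubx and exd fell in myoblasts, beside 43.5% of all 5849 genes that passed in either direction.

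**Figure D2:**
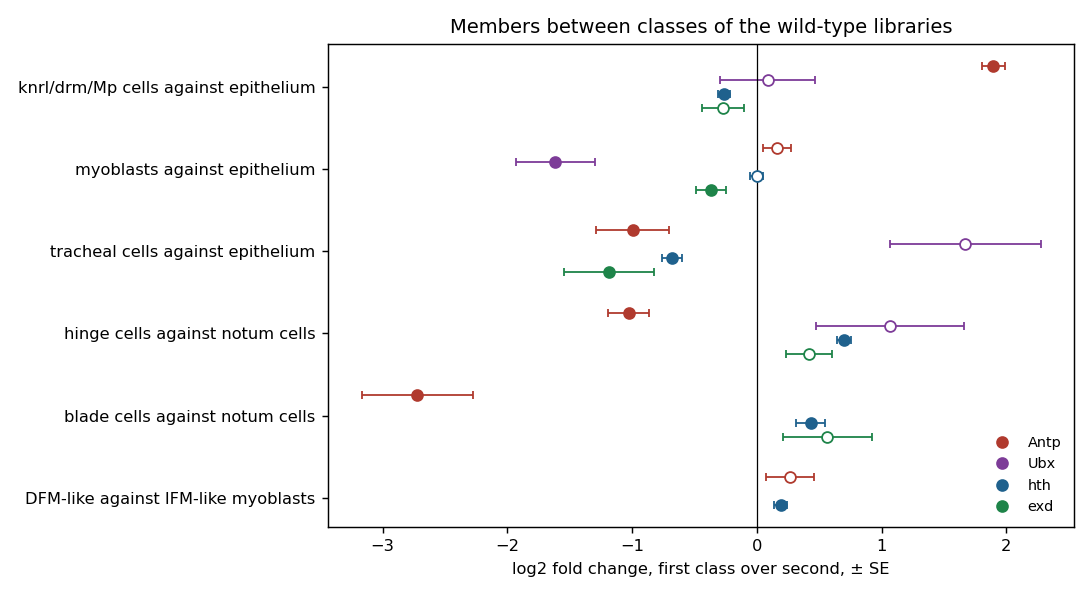
Log2 differences (horizontal axis, bars 1 SE from edgeR) of Antp, Ubx, hth and exd between classes of the wild-type libraries, in rows that name the class and the class it was set against, with filled symbols where the adjusted p was below 0.05 and no symbol where a gene had too few UMIs to be tested. Antp stands at 1.90 in knrl/drm/Mp cells against the epithelium and at -2.72 in blade cells against the notum.

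The myoblasts that form direct flight muscles (DFM) and indirect flight muscles (IFM) were separated within the class by UMIs of DFM genes without vg (879 DFM-like cells) and by vg without DFM genes (1040 IFM-like cells). The Hox gene Antp, which is known to act in the second thoracic segment, had 106 to 460 CPM in DFM-like cells (median 227) and 72.8 to 327 CPM in IFM-like cells (median 196), which overlapped (249 ± 112 and 201 ± 80.3 CPM, SD, n = 8; log2 difference 0.27 ± 0.20, adjusted p = 0.59). The cofactor hth had 2177 to 7484 CPM in DFM-like cells (median 4532) and 1965 to 6155 CPM in IFM-like cells (median 3742). It was higher in DFM-like cells of 7 of 8 libraries, by 0.19 ± 0.05 on the log2 scale (adjusted p = 0.0043), while 7.63% of the 1179 genes passed. The call was lost in the 1151-GAL4 libraries alone (0.16) and when cells of several classes were kept (0.10). Ubx, Scr and exd had too few UMIs to be tested between these cells: Ubx had 2 UMIs in DFM-like and 8 in IFM-like cells, Scr 4 in each, and exd 66 and 73.

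In the epithelium, cells of the remaining blade (nub and rn, at least 2 UMIs, without zfh2 and Sox15), the hinge (zfh2 and Sox15, at least 2) and the notum (eyg, toe, pnr, tup, ara, caup and mirr, at least 2) could be compared. Antp was lower in the hinge than in the notum in 7 of 7 libraries. It measured 63.3, 191, 45.0 and 110 CPM in hinge cells of 1151-GAL4 replicates 1 to 4 and 109, 269 and 156 CPM in those of 1151>mCherry-RNAi replicates 6 to 8, against 158, 285, 166 and 161 CPM and 240, 270 and 255 CPM in the notum. Hinge values of some libraries lay above notum values of others. The means were 134.5 ± 77.4 and 219 ± 55.6 CPM (SD, n = 7), and the log2 difference was -1.03 ± 0.17 (adjusted p = 2.6e-08). With the 3 1151>mCherry-RNAi libraries alone it was -0.59 (adjusted p = 0.38). Notum Antp was at a median of 1.04 times the barcodes under 200 genes (0.63 to 1.72), above them in 5 of 8 libraries. Hinge Antp was at a median of 0.52 times (0.24 to 1.10), above them in 3 of 7. The level alone therefore did not set Antp of either region apart from free RNA. In 3 wild-type libraries with at least 10 blade cells, Antp was at 42.1, 28.1 and 19.7 CPM in blade cells and at 166, 161 and 255 CPM in notum cells, with no overlap. Here Antp fell by 2.72 ± 0.44 on the log2 scale (adjusted p = 3.8e-05), from 6 UMIs in the blade, and without 1151>mCherry-RNAi replicate 8 the value was -2.42 (adjusted p = 0.15). All 3 blade levels were below those of the barcodes under 200 genes of their libraries, at 0.066 to 0.28 of them. Of the members tested, 2 of 4 passed between hinge and notum, where 8.72% of 4138 genes did, and 2 of 3 between blade and notum, where 3.2% of 2997 genes did.

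The cofactor hth was higher in the hinge. Hinge cells had 2575, 3127, 4699 and 4928 CPM of hth in 1151-GAL4 replicates 1 to 4 and 6919, 10960 and 11905 CPM in 1151>mCherry-RNAi replicates 6 to 8, and notum cells had 2241, 2088, 2364 and 2710 CPM and 3640, 5025 and 5377 CPM. Hth was higher in the hinge within each of the 7 libraries, although the libraries differed more among themselves. The means were 6445 ± 3691 and 3349 ± 1366 CPM (SD, n = 7), the log2 difference 0.70 ± 0.05 (adjusted p = 1.1e-34). In the hinge hth was at a median of 1.63 times the level of the barcodes under 200 genes, above them in 6 of 7 libraries, and in the notum at 0.83 times, below them in 8 of 8. Blade cells, where hth is known to be repressed, had 3787, 5658 and 5053 CPM against 2364, 2710 and 5377 CPM in the notum of the same libraries. That difference, 0.43 ± 0.12 on the log2 scale (adjusted p = 0.028), was lost with DESeq2 (0.45) and in other settings, among them without 1151-GAL4 replicate 4 (0.15) and without 1151>mCherry-RNAi replicate 8 (0.68). The blade levels were 0.74 to 1.88 times those of the barcodes under 200 genes. The pouch had been cut away, and 122 wild-type blade cells were found in all.

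**Figure D3:**
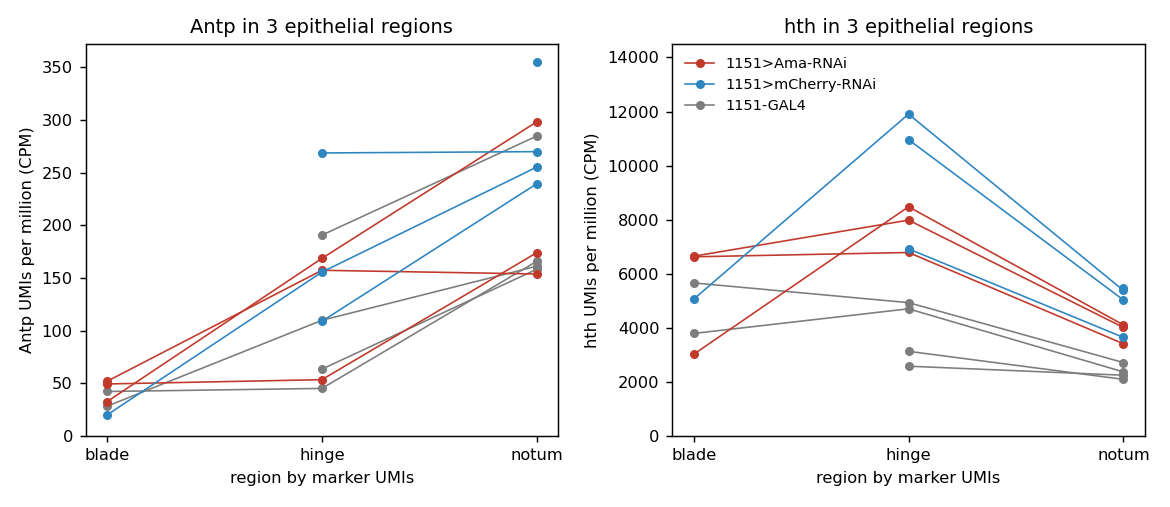
Antp (left) and hth (right) in CPM (vertical axes) in blade, hinge and notum cells, with a line for each library and points where a library had at least 10 cells of the region. In the wild type Antp is at 19.7 to 42.1 CPM in blade cells and at 158 to 356 CPM in notum cells, and hth is higher in the hinge than in the notum in 7 of 7.

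Exd, the Pbx partner of Hth, was measured at 190, 210, 109 and 129 CPM in hinge cells of 1151-GAL4 replicates 1 to 4 and at 130, 173 and 127 CPM in those of 1151>mCherry-RNAi replicates 6 to 8. Their notum cells had 84.2, 117, 101 and 81.4 CPM and 79.8, 99.5 and 81.4 CPM. The hinge value was higher in 7 of 7 libraries (153 ± 37.9 and 92.1 ± 14.2 CPM, SD), but the log2 difference of 0.42 ± 0.18 did not pass over all genes (adjusted p = 0.17). In the blade exd had 28 UMIs, and 0.57 ± 0.35 on the log2 scale against the notum did not pass either (adjusted p = 0.60).

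Across the whole class, hth was nearly level between myoblasts and epithelium. It had 2187, 2551, 3219 and 3501 CPM in myoblasts of 1151-GAL4 replicates 1 to 4 and 6180, 4228, 6394 and 6513 CPM in those of 1151>mCherry-RNAi replicates 5 to 8, against 2872, 2587, 3027 and 3266 CPM and 6132, 4287, 6484 and 6407 CPM in the epithelium. Within a library the 2 classes differed far less than the libraries did. The log2 difference was -0.0013 ± 0.05 (means 4347 ± 1778 and 4383 ± 1698 CPM, SD, n = 8; adjusted p = 0.99). Both classes stood at the level of the barcodes under 200 genes, at medians of 0.99 and 1.04 times that level over the 8 libraries. With cells thinned to 400 UMIs, 71.9% of myoblasts and 63.1% of epithelial cells kept an hth UMI, and unthinned the shares were 88.1% and 80.2%, against 30.4% in the barcodes under 200 genes.

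In knrl/drm/Mp cells hth was below the barcodes under 200 genes in 7 of 7 libraries, at 0.70 to 0.996 times them (median 0.84). It was also lower than in the epithelium in 7 of 7, at 1836 to 5268 CPM (median 3006) against 2587 to 6484 CPM. The means were 3479 ± 1318 and 4133 ± 1667 CPM (SD, n = 7) and the log2 difference was -0.26 ± 0.05 (adjusted p = 1.3e-05), which did not pass with DESeq2 (-0.23, adjusted p = 0.091) or in the 1151-GAL4 libraries alone (-0.16, adjusted p = 0.071). In cells of the tracheal class, hth had 1771 and 2298 CPM in 1151-GAL4 replicates 3 and 4, against 3027 and 3266 CPM in their epithelium. This was a fall of 0.68 ± 0.08 on the log2 scale (adjusted p = 7.1e-15, edgeR). These were the 2 libraries with at least 10 tracheal cells, and hth in those cells was at 0.51 and 0.76 times the barcodes under 200 genes. The check markers did not single out this class, as given above. Antp and exd were also lower there: Antp had 31.1 and 99.9 CPM against 131 and 136 CPM (-0.996 ± 0.29, adjusted p = 0.032), and exd 62.2 and 33.3 CPM against 111 and 90.7 CPM (-1.18 ± 0.36, adjusted p = 0.043). These calls rest on 22 and 14 UMIs and were lost with DESeq2. Of the 4 members tested 3 fell in tracheal cells, beside 2.59% of 6806 genes that passed.

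Ubx, the Hox gene of the third thoracic segment, was rare. In epithelial cells it had 10.3, 6.25, 7.30 and 16.9 CPM in 1151-GAL4 replicates 1 to 4 and 5.94, 30.6, 73.2 and 17.1 CPM in 1151>mCherry-RNAi replicates 5 to 8, from 221 UMIs in all. Myoblasts of these libraries had 2.64, 0, 0.66 and 5.97 CPM and 26.3, 12.4, 13.9 and 4.003 CPM, from 24 UMIs, each in a cell of its own. The myoblast value was the lower in all libraries except 1151>mCherry-RNAi replicate 5. Ubx fell by 1.61 ± 0.31 on the log2 scale in myoblasts (means 8.23 ± 8.91 and 20.9 ± 22.7 CPM, SD, n = 8; adjusted p = 2.5e-05), and within the 1151>mCherry-RNAi libraries alone the value was -1.28 (adjusted p = 0.062). Barcodes under 200 genes had 22.2 ± 17.5 CPM, so the epithelial level as a whole was not above free RNA, and the myoblast level was at a median of 0.29 times it. Of the 58 wild-type cells with at least 2 Ubx UMIs, 0 were myoblasts, of 5211, which allows up to 0.058% of myoblasts with that many UMIs at their depth and sets no limit on the share that makes Ubx. The others were 29 epithelial cells, 7 tracheal cells, 3 peripodial cells, 2 knrl/drm/Mp cells, 7 of no class and 10 of several classes, and the highest count in a cell was 14, in an epithelial cell.

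In peripodial cells, the layer in which the wing disc is known to make Ubx protein, Ubx was at 310 and 53.6 CPM in 1151-GAL4 replicates 3 and 4, from 7 and 1 UMIs in 17 and 14 cells, against 7.30 and 16.9 CPM in their epithelium. The 2 groups did not overlap, and the log2 difference was 3.35 ± 1.29, which did not pass (adjusted p = 0.15), beside 4.84% of 6341 genes that did. When libraries with at least 5 peripodial cells were admitted, a choice made after seeing the data that gave 5 libraries, it was 2.99 (adjusted p = 1.5e-05), and it passed with DESeq2 (3.51). The median of all genes was -1.18 in this comparison, so that peripodial values are best read against that shift. Over the 57 wild-type peripodial cells 12 had a Ubx UMI (21.1%, exact 95% binomial interval 11.4 to 33.9), against 10.99% of tracheal cells, 1.53% of epithelial cells, 0.46% of myoblasts and 0.25% of barcodes under 200 genes. The median depths were 1036 and 1319 UMIs in peripodial cells, 3766 and 3902 in tracheal cells, 546 to 1153 in the epithelium and 505 to 919 in myoblasts. With thinning the share was 8% of 50 peripodial cells, against 1.10% of 91 tracheal cells, 0.65% of 8505 epithelial cells and 0.28% of 4652 myoblasts. In tracheal cells Ubx was at 0 and 77.7 CPM (14 UMIs, all in 1151-GAL4 replicate 4) against 7.30 and 16.9 CPM in the epithelium (adjusted p = 0.15), and in knrl/drm/Mp cells at 22.3 ± 15.1 CPM against 23.1 ± 23.6 CPM (SD, n = 7; log2 difference 0.09 ± 0.38, adjusted p = 0.97).

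**Figure D4:**
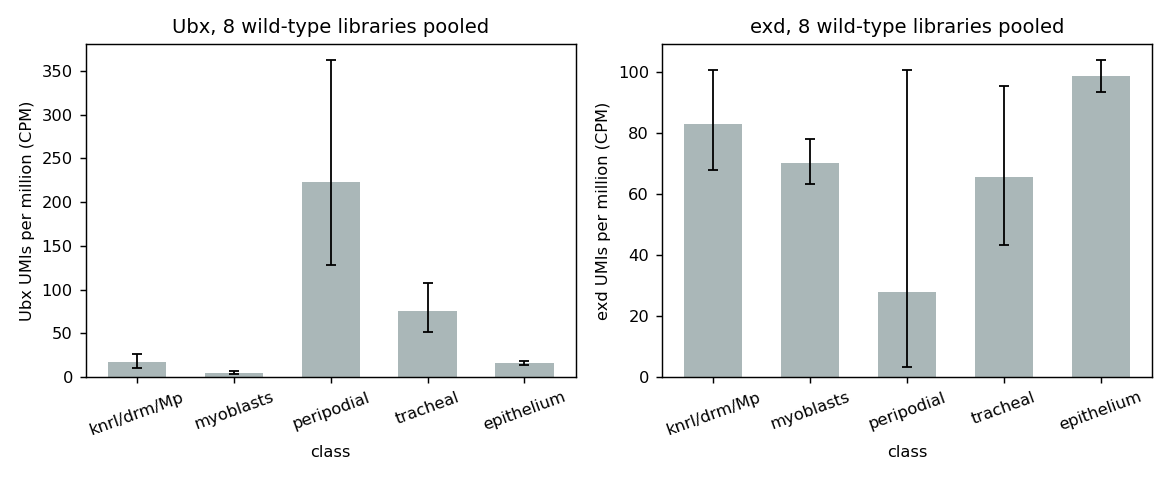
Ubx (left) and exd (right) in CPM (vertical axes) in each class, with the UMIs of all wild-type libraries pooled, and bars for the 95% exact Poisson interval, which covers counting error only. Ubx reaches 223 CPM in peripodial cells from 16 UMIs and 75.5 CPM in tracheal cells, against 16.4 CPM in the epithelium and 4.76 CPM in myoblasts.

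In the other peripodial values, hth had 3896 and 3538 CPM against 3027 and 3266 CPM in the epithelium, while its fitted log2 difference was -0.48 ± 0.21 (adjusted p = 0.27), above the median of all genes given above. Antp had 44.3 and 214 CPM against 131 and 136 CPM (adjusted p = 0.86). Cells that also met the myoblast, knrl/drm/Mp or tracheal rule were left out. With them kept the wild type had 96 peripodial cells instead of 57. The paper lists drm and Antp as markers of a second peripodial cluster, so this class need not cover the whole layer. No exd UMI was counted among the 41244 UMIs of the 2 libraries, which allows up to 72.7 CPM over both together (3 UMIs, counting error only), against 111 and 90.7 CPM in their epithelium. The edgeR test did not pass (adjusted p = 0.073). Over all 57 wild-type peripodial cells 2 exd UMIs were counted, both in 1151>mCherry-RNAi replicate 6, which gave 27.9 CPM (exact Poisson interval 3.38 to 101), against 98.7 CPM (93.5 to 104) in the epithelium, so the intervals overlapped.

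Exd was slightly lower in myoblasts than in the epithelium. It had 52.7, 77.4, 63.1 and 69.2 CPM in myoblasts of 1151-GAL4 replicates 1 to 4 and 61.5, 98.9, 83.1 and 104 CPM in those of 1151>mCherry-RNAi replicates 5 to 8, against 108, 124, 111 and 90.7 CPM and 47.5, 91.7, 110.5 and 81.0 CPM in the epithelium. It was lower in 4 of 4 libraries of 1151-GAL4 and in 1 of 4 of 1151>mCherry-RNAi. The log2 difference was -0.37 ± 0.12 (means 76.2 ± 18.3 and 95.4 ± 23.8 CPM, SD, n = 8; adjusted p = 0.012). In the 1151>mCherry-RNAi libraries alone it was 0.12 (adjusted p = 0.73), and without 1151-GAL4 replicate 1 or 3 it was -0.30 and -0.28 (adjusted p = 0.053 and 0.12), so the call rests on the 1151-GAL4 libraries.

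Scr, the Hox gene of the first thoracic segment, was counted 66 times in the wild type, in 62 of 22041 cells (0.28%), 3 of them with at least 2 UMIs. Its level was 2.81 ± 2.22 CPM in myoblasts and 1.83 ± 2.03 CPM in the epithelium (SD, n = 8), and 2.28 ± 2.88 CPM in barcodes under 200 genes. No UMI of it was counted in the 417 wild-type knrl/drm/Mp cells, which allows up to 2.42 CPM, or in the 57 peripodial cells. It could not be tested between classes. Of the 8 Hox genes 2, Antp and Ubx, had enough UMIs for a test between myoblasts and epithelium, and lab, pb, Dfd, abd-A and Abd-B, which act in the head and the abdomen, did not.

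The 2 wild-type lines differed in hth. In myoblasts, knrl/drm/Mp cells, the hinge, the notum, the epithelium as a whole and barcodes under 200 genes, the 1151>mCherry-RNAi libraries were higher than the 1151-GAL4 libraries with no overlap, while the few blade values overlapped. In myoblasts hth averaged 5829 ± 1076 and 2865 ± 603 CPM (SD, n = 4 each), a log2 difference of 0.99 ± 0.23 (adjusted p = 0.012), and in the epithelium 5827 ± 1038 and 2938 ± 285 CPM, a difference of 1.09 ± 0.24 (adjusted p = 0.010). Without 1151>mCherry-RNAi replicate 8 the adjusted p was 0.051 and 0.056, with log2 values of 0.93 and 1.03. The barcodes under 200 genes showed the same, 5737 ± 1199 and 2987 ± 367 CPM (0.95 ± 0.27, adjusted p = 0.034), and so did knrl/drm/Mp cells, 4762 ± 661 and 2516 ± 551 CPM (SD, n = 3 and 4; 0.76 ± 0.18, adjusted p = 0.0073). The lines also differed widely elsewhere: 12.8% of 2579 genes passed in myoblasts, 10.3% of 4914 in the epithelium, 10.3% of 2734 in barcodes under 200 genes and 13.1% of 1581 in knrl/drm/Mp cells. Line and library preparation cannot be told apart here. Ubx was higher in the 1151>mCherry-RNAi epithelium (31.7 ± 29.4 and 10.2 ± 4.79 CPM, SD, n = 4; 1.56 ± 0.46, adjusted p = 0.040), with 1151>mCherry-RNAi replicate 7 at 73.2 CPM, and without that library the value was 0.82 (adjusted p = 0.29). Antp missed the threshold in myoblasts (227 ± 63.7 and 160 ± 22.8 CPM, adjusted p = 0.18) and in the epithelium (231 ± 46.5 and 156 ± 34.4 CPM, adjusted p = 0.062), and exd in both (adjusted p = 0.27 and 0.37).

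**Figure D5:**
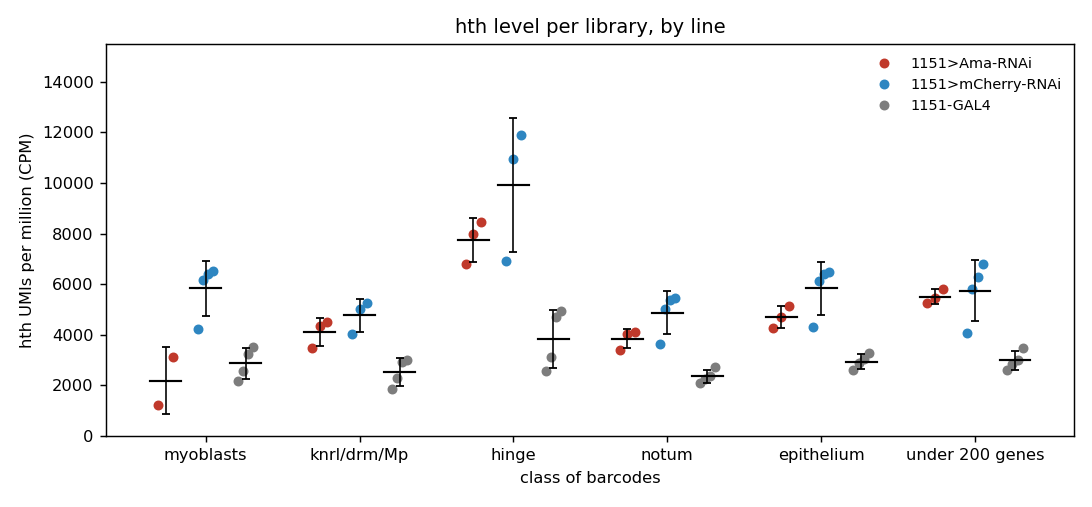
Homothorax in CPM (vertical axis) by library in myoblasts, knrl/drm/Mp, hinge, notum and epithelial cells and barcodes under 200 genes, with 1151>Ama-RNAi left of 1151>mCherry-RNAi and 1151-GAL4 and bars at the mean and SD of each line. In each of these classes all 1151>mCherry-RNAi values lie above all 1151-GAL4 values, in myoblasts 4228 to 6513 against 2187 to 3501 CPM.

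In the libraries labelled 1151>Ama-RNAi the members did not pass a test against the wild type in either main class. In the epithelium hth had 5131, 4255 and 4682 CPM in replicates 1, 4 and 5 against 2587 to 6484 CPM in the wild type (adjusted p = 0.9998), and Antp 210, 152 and 196 CPM against 131 to 288 CPM (adjusted p = 0.9998). There 0.0719% of 5566 genes passed. In myoblasts Antp was at 595 and 505 CPM in replicates 4 and 5 (13 and 17 UMIs in 15 and 35 cells), and at 1117 CPM from 7 UMIs in the 6 cells of replicate 1, which was below the minimum of 10 cells. The wild-type libraries had 132 to 284 CPM and did not overlap with these. The log2 difference of 1.10 ± 0.35 did not pass (adjusted p = 0.26), where 0.398% of 3265 genes did. In the same myoblasts hth was at 1236 and 3122 CPM against 2187 to 6513 CPM (-1.39 ± 0.47, adjusted p = 0.30), and the difference of hth between myoblasts and epithelium changed by -1.52 ± 0.18 on the log2 scale with the label (adjusted p = 1.2e-09, 2 libraries against 8, where 2.12% of 6096 genes passed). Beside this, the myoblasts of these 2 libraries had 504 and 505 CPM of the epithelial check markers, against 219 to 372 CPM in the wild type, and fewer UMIs of their own check markers, as given above. The part of these cells in the Antp and hth values was not tested. Scr had 3 UMIs there and exd 1. In knrl/drm/Mp cells 0 of 1733 genes passed between the label and the wild type in edgeR, with 83 at an unadjusted p under 0.05.

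Regulators of the proximal-distal axis were read from a list of 12. It holds proximal genes such as tsh and distal genes such as Dll, not only genes that act with hth. Between hinge and notum 6 of 12 rose and 1 fell, with a median log2 difference of 0.33 against -0.04 over all genes. Of all 4138 genes 8.72% passed in this comparison. Of the risers zfh2 was itself a marker of the hinge rule, and nub and rn were markers of the blade rule. Cells that met 2 region rules were left out, which removed notum cells with at least 2 UMIs of nub and rn and without zfh2 and Sox15. Hinge cells with nub or rn were kept, so the rise of these genes was partly set by the rules. The count and the median of the list include these rule markers. Distal-less (Dll), the distal appendage gene, was at 67.4 ± 66.6 against 21.1 ± 23.0 CPM, elbow B (elB) at 297 ± 150 against 131 ± 63.2 CPM, no ocelli (noc) at 211 ± 86.1 against 132 ± 32.8 CPM, nubbin (nub) at 144 ± 55.7 against 26.2 ± 10.9 CPM and rotund (rn) at 46.7 ± 49.5 against 13.9 ± 6.13 CPM (SD, n = 7). Teashirt (tsh), a zinc finger gene of the proximal disc, fell by 0.53 ± 0.16 on the log2 scale (161 ± 75.3 against 203 ± 50.1 CPM, adjusted p = 0.0097), the direction of Antp and the opposite of hth. In the blade tsh was at 29.97 ± 11.3 against 157 ± 11.6 CPM (SD, n = 3; -2.46 ± 0.46, adjusted p = 0.00030, edgeR). In knrl/drm/Mp cells 7 of the 12 fell and 0 rose (median -0.77 against -0.03 over all genes, of which 4.2% passed), among them elB at 84.8 ± 23.8 against 171 ± 70.3 CPM, nub at 11.9 ± 12.9 against 75.1 ± 19.7 CPM and zfh2, a hinge gene, at 92.1 ± 47.9 against 185 ± 26.2 CPM (n = 7). In myoblasts 3 of the 12 rose, noc, rn and vg, the last the wing selector that IFM precursors also make, and 8 fell, with salm, salr, nub and zfh2 at log2 differences of -3.93 to -3.31, beside 43.5% of all genes that passed in either direction. Tsh was not among those that passed there.

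Polycomb and Trithorax group proteins keep Hox genes silent or active through chromatin. Of 21 Polycomb group genes tested between myoblasts and epithelium, 4 rose (corto, ph-p, ph-d and Sce) and 1 fell (Pc), with a median of 0.15 on the log2 scale. The largest of these was ph-d, at 39.7 ± 22.0 against 24.2 ± 4.32 CPM (0.97 ± 0.17, adjusted p = 4.3e-06), followed by corto, at 306 ± 52.4 against 179 ± 66.1 CPM (0.91 ± 0.10, adjusted p = 3.6e-11). Of 19 Trithorax group genes 3 rose (tna, Trl and wds) and 5 fell (trx, psq, brm, kis and Dpy-30L1). Trithorax itself (trx), the histone methyltransferase of the group, was at 162 ± 55.6 against 245 ± 48.3 CPM (-0.59 ± 0.10, adjusted p = 1.8e-06), and tonalli (tna) at 2708 ± 1192 against 1470 ± 435 CPM (0.86 ± 0.06, SD of the levels over n = 8 libraries). These 5 of 21 and 8 of 19 genes stand beside 43.5% of all genes. Between knrl/drm/Mp cells and epithelium 1 of 20 Polycomb group genes fell, corto (-0.49 ± 0.14), and 1 of 19 Trithorax group genes, tna (-0.22 ± 0.06), and none of either group passed between hinge and notum (18 and 17 tested).

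The likeness of each member's profile to other genes was described over 27 profiles of class and library by Pearson's correlation of log2(CPM + 10), among genes of at least 50 mean CPM. The profiles share library and depth, and no test was made. Antp was most like CR44042 (r = 0.68), followed by Galphaq, Mtpalpha, wge and dlg1 (0.66 to 0.62). The genes most like hth were Gbeta13F (0.92), Syx1A, sbb, rin and CG32767 (to 0.89), those most like exd were Dok (0.91), mud, CG1646, msps and klu (to 0.89), and those most like Ubx were mam (0.79), CG9005, baz, Cpr65Ec and ena (to 0.74). No member was among the 5 nearest genes of another, but Ubx and Scr were below 50 mean CPM and could not be.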

How the data were processed

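Wing discs of 8 wild-type libraries and 3 libraries labelled 1151>Ama-RNAi were profiled by Drop-seq. Per the labels and the methods, the authors aligned reads with STAR to BDGP6, checked them with FastQC, and deposited unnormalized UMI counts (gene by barcode, made with DigitalExpression of Drop-seq_tools) with no limit on genes per cell. Replicates carry the numbers of the sample titles.

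Cells with 200 to 2500 genes were kept, classed by UMIs of the marker genes, and UMIs were summed per class and library where at least 10 cells were present. The members, marker rules and gene lists were chosen with earlier results of these data known. Sums were tested in R 4.3.3 with edgeR 4.0.16 (TMM, filterByExpr, glmQLFit and glmQLFTest, library as a block between classes, adjusted p below 0.05 over all genes tested), with DESeq2 1.42.0 as an alternative. Levels, exact intervals (95%) and thinning to 400 UMIs (seed 42) were computed in Python 3.11.15 with numpy 2.4.6, scipy 1.17.1 and pandas 2.3.3, and plots drawn with matplotlib 3.10.9. Intervals and limits cover counting error only. Doublets were not called, and cells of several classes were left out instead. The named genes were the members, Ama, the 5 genes most like each member with at least 100 UMIs, and the listed genes that passed. The comparisons of knrl/drm/Mp cells between labels or lines, and of barcodes under 200 genes, were added after the data had been seen. On simulated counts, 97% of 100 genes changed by 1 on the log2 scale were recovered among 4384 genes between myoblasts and epithelium, 86% among 4033 between knrl/drm/Mp cells and epithelium and 86% among 2668 between hinge and notum, and 100% of those changed by 2 in each. Only genes of at least 50 CPM were changed, with a fixed dispersion and the same mean share of a gene in all libraries. Ubx and Scr lie below that level, so these percentages do not cover them.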

Additional observations from a re-analysis of the deposited data

Results flagged for a closer look

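In 67 groups of 4 libraries of the same line, class and member, 10 values stood apart from the others by Dixon's criterion. Chance alone flags about 5% of groups. In the myoblasts and the epithelium of 1151>mCherry-RNAi, replicate 6 had the lowest hth levels, 4228 CPM where the other 3 libraries had 6180 to 6513 CPM in myoblasts, and 4287 CPM where they had 6132 to 6484 CPM in the epithelium. Antp in notum cells was at 284.8 CPM in 1151-GAL4 replicate 2, from 102 UMIs, against 158 to 166 CPM in the other 3 libraries. Exd in IFM-like myoblasts was at 168 CPM in 1151-GAL4 replicate 2, from 11 UMIs, against 48.5 to 68.5 CPM in the others.

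The other 6 were counts of 1 or 2 UMIs where the remaining libraries of the line had 0, a pattern that the criterion always flags. Ubx in DFM-like myoblasts was at 2.40 CPM in 1151-GAL4 replicate 4 and at 57.5 CPM in 1151>mCherry-RNAi replicate 5, from 1 UMI each. Scr was at 3.23 CPM in hinge cells of 1151-GAL4 replicate 4, at 11.3 CPM in IFM-like myoblasts of 1151>mCherry-RNAi replicate 6, and at 11.1 CPM in notum cells and 5.94 CPM in the epithelium of 1151>mCherry-RNAi replicate 5, from 2 UMIs in the last.

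One of 17 tests of whether a class difference of a member changed with the label or the line passed: the log2 difference of hth between myoblasts and epithelium was lower by 1.52 in the libraries labelled 1151>Ama-RNAi than in the wild type (value -1.52 ± 0.18, adjusted p = 1.2e-09 in edgeR). It rests on 2 libraries with 15 and 35 myoblasts.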

How the results depend on the processing

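Of 591 values of the members under the alternatives tried, 509 kept their direction and their side of the threshold, 38 lost it, 19 gained it and 25 changed sign, and of 167 counts of genes called 116 stayed within 1.5 times. Antp in knrl/drm/Mp cells passed under every alternative tried. With cells of several classes kept, 426 genes were called in knrl/drm/Mp cells against epithelium, 145 in DFM-like against IFM-like myoblasts and 20 in myoblasts of the libraries labelled 1151>Ama-RNAi, and Antp and hth in myoblasts against epithelium stood at -0.068 and 0.020. With the class minimum raised by 1 UMI the counts were 52 (DFM-like against IFM-like), 1 (label, myoblasts) and 2 (label, epithelium). DESeq2 called 130 genes in knrl/drm/Mp cells, 45 in tracheal cells, 57 between DFM-like and IFM-like cells, 46 between blade and notum, 218 between hinge and notum and 28 in myoblasts by the label. With no filter on low counts 268 genes were called between blade and notum, 35 in myoblasts and 18 in the epithelium by the label, and Ubx in knrl/drm/Mp cells was at -0.042. Without the library as a block the counts were 1192 (myoblasts), 49 (knrl/drm/Mp), 72 (tracheal), 13 (DFM-like against IFM-like), 28 (blade) and 52 (hinge). The 1151>mCherry-RNAi libraries alone gave 1175 genes in myoblasts, 81 in knrl/drm/Mp cells, 24 between DFM-like and IFM-like cells and 55 between hinge and notum, with hth at 0.012 and exd at 0.12 in myoblasts and Ubx at -0.32 and exd at 0.12 in knrl/drm/Mp cells. The 1151-GAL4 libraries alone gave 152 genes in knrl/drm/Mp cells and 10 between blade and notum, with hth at 0.030 in myoblasts. All 11 libraries gave 210 genes between blade and notum. With 1151>mCherry-RNAi alone as the reference of the label, 9 genes were called in the epithelium, with hth at -0.37 and exd at 0.049. At least 20 cells per library gave 2 genes in myoblasts by the label. Libraries with at least 5 cells, an alternative chosen after seeing the data, gave 622 genes in peripodial and 84 in tracheal cells. The causes of these changes were not tested.

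Leaving out 1 library at a time gave 57 (without 1151-GAL4 replicate 4) to 96 genes between DFM-like and IFM-like cells, 10 (without 1151>mCherry-RNAi replicate 8) to 113 between blade and notum, 2 (without 1151>Ama-RNAi replicate 4) to 16 in myoblasts and 1 (without 1151>Ama-RNAi replicate 1) to 5 in the epithelium by the label, and, between the wild-type lines, 112 (without 1151>mCherry-RNAi replicate 8) to 501 (without replicate 5) in myoblasts and 131 to 829 in the epithelium without the same 2 libraries. It gave -0.051 to 0.045 for hth in myoblasts and -0.25 to 0.38 for Ubx in knrl/drm/Mp cells, and by the label in the epithelium -0.19 to 0.12 for Antp, -0.27 to 0.47 for Ubx and -0.059 to 0.21 for hth, none of which passed in any of these fits.

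Replicate numbers 1, 4 and 5 occur in the titles of both the libraries labelled 1151>Ama-RNAi and the wild type. The deviations of same-numbered libraries had correlations of 0.287, 0.028 and -0.199 over 2012 genes, so a pairing by these numbers was not shown. These few correlations cannot exclude it. The sample descriptions number the 1151>mCherry-RNAi libraries differently, and the numbers of the titles were used. With the replicate block 84 genes were called in myoblasts, hth among them (-1.88), and 7 in the epithelium, where Ubx was at 0.54 and exd at 0.0055.

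Depth limits Ubx and Scr most, and the peripodial, tracheal and blade classes, which rest on 2, 2 and 3 libraries.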
